A study of Rattus norvegicus with 9 samples.

Results

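The genes described here are the integrin subunits, the matrix metalloproteinases (Mmp), their tissue inhibitors (Timp) and the Adam and Adamts proteases of the rat, followed from embryonic ventral midbrain into primary culture. A gene was a member when its symbol started with Itga, Itgb, Mmp, Timp or Adam (Adamts included) followed by a number, and when at least 1 probe set of the array was annotated to that symbol alone. The rule used names only and no measured value. It gave 47 of the 10411 genes measured: 6 integrin alpha subunits, 4 integrin beta subunits, 3 proteins that share the Itgb prefix but are integrin-binding proteins and not integrins, 14 Mmp, 3 Timp, 14 Adam and 3 Adamts genes. Where a gene had several probe sets, the brightest over the 9 arrays stands for it. Of these arrays 6 are of culture, so the choice leans towards probe sets that are bright in culture.

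Integrins are receptors built of 1 alpha and 1 beta subunit that span the cell membrane and tie matrix proteins such as laminin, fibronectin and collagen to the actin skeleton at focal adhesions. Matrix metalloproteinases and Adamts enzymes cut those matrix proteins outside the cell, Adam proteases release the outer parts of membrane proteins, and Timps block the active sites of these enzymes. In the embryonic nervous system these families take part in cell migration, neurite growth, the forming vasculature and the basement membrane around the brain.

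The study set the embryonic rat mesencephalon beside primary cultures made from it, measured as total RNA on Affymetrix expression arrays. Per the labels, embryos at embryonic day 11 (E11) of 4 pregnant rats were combined into 3 groups that were handled apart. MesE11 is the dissected ventral midbrain, pooled within a group (3 arrays, called tissue here). MesPC is ventral midbrain dissociated to single cells, grown in duplicate and collected at 9 days in vitro (6 arrays, called culture here). The animals are given as rats with no strain, transgene or drug named for either group. Every sample is a pool of embryos. The labels also speak of 3 independent culture samples, so the 6 culture arrays may stand for fewer than 6 independent cultures, and p-values measure the spread between these arrays, which may be technical.

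All values are log2 intensities of a probe set. The 9 arrays had medians between 8.60 and 8.66. The bacterial control probe sets (27 on the array) read between 4.80 and 6.68, and a group mean at or below 6.68 is called dim. The culture arrays fell into sets of 3, replicates 1 to 3 (the first culture set) and replicates 4 to 6 (the second), which the labels do not explain: the correlation over probe sets was 0.997 to 0.998 within a set and 0.982 to 0.987 between the sets. Against tissue it was 0.943 to 0.953 for culture arrays 1 to 3 and 0.966 to 0.974 for culture arrays 4 to 6. Of the 7 midbrain genes checked, 2 were called higher in culture (28.6%, against 21.9% of all genes) and 4 lower (57.1%, against 22.7%). Pitx3 was dim in culture. In such bulk samples, fewer cells of a type and less RNA per cell cannot be told apart.

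Several receptors, proteases and all measured inhibitors of the set were higher in culture than in tissue. On the brightest probe set of each gene, the largest rises belonged to Mmp2 (6.50-fold, with a second probe set that went the other way), Itgb1 (2.56-fold), Timp3 (2.43-fold) and Itgb4 (2.01-fold), and all 3 Timps and all 3 Adamts genes rose. The falls were fewer and smaller, led by Itga1 (1.71-fold). Of the 47 members, 13 were called higher (27.7%, against 21.9% of all genes) and 5 lower (10.6%, against 22.7% of all genes). A call means a Benjamini-Hochberg adjusted p under 0.05 in limma's test over all probe sets. The median difference, culture minus tissue, was -0.07 over the members and -0.06 over all genes.

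Among the members 4 were higher at 2-fold or more (8.51%, against 3.63% of all genes). The largest called fall, that of Itga1, stayed under 2-fold, while 2.13% of all genes had a called fall of 2-fold or more. Every culture array was above every tissue array for 13 of the 47 members, against 21.1% of all genes. For 9 members every culture array was below, against 23.3% of all genes. The split of the calls moved with the scaling: with arrays centred on their medians, 13 members were higher and 10 lower, so that 56.5% of the called members were higher in place of 72.2%. The median difference over all probe sets was -0.10 with that scaling, beside -0.07 in the deposited values. Shares of all genes were not counted for it, so its 10 falls have no background beside them. The 5 added with that scaling were Adam6, Adam18, Itga2b, Itgb7 and Mmp9. With the culture sets as a random block, 12 members stayed on the higher side, against 13.2% of all genes. On the lower side 1 stayed, Itga1, against 9.11% of all genes. Adamts1 (adjusted p 0.0638), Mmp16 (0.0758), Mmp8 (0.0881), Adam1a (0.124) and Mmp10 (0.134) no longer passed limma's test in that fit.

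**Figure D1:**
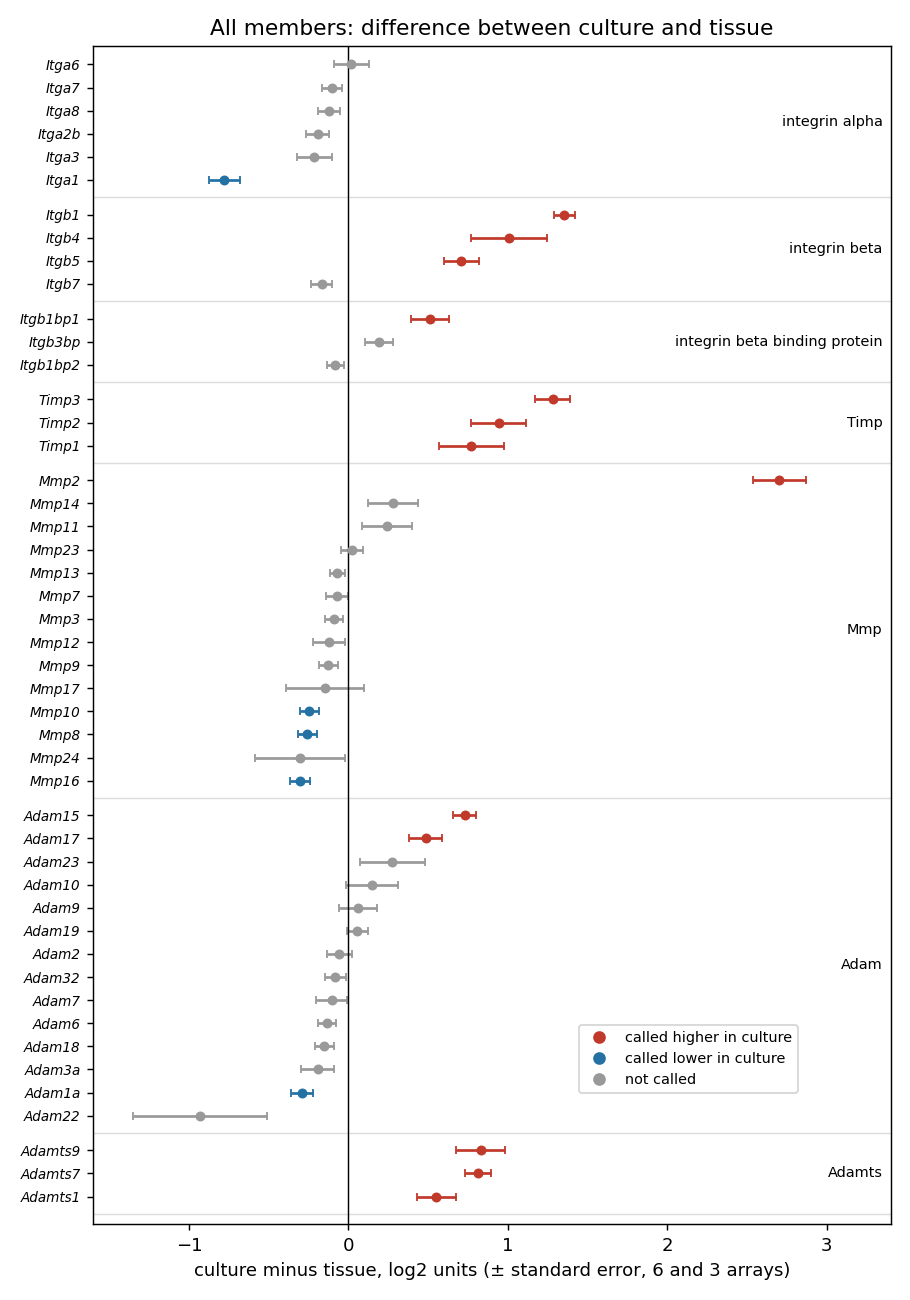
Difference between culture and tissue (horizontal axis, log2 units) for each of the 47 members, grouped by family, with points for the mean difference of 6 culture and 3 tissue arrays and bars for the standard error. The 13 called higher run from 0.49 for Adam17 to 2.70 for Mmp2, and the 5 called lower from -0.24 for Mmp10 to -0.78 for Itga1.

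Integrin beta subunits rose. Of the 4 measured, 3 were called higher (against 21.9% of all genes) and 1 was not called, and the median difference was 0.86. Of the 6 alpha subunits, 1 was called lower (against 22.7% of all genes) and 5 were not called, with a median of -0.16. Itga5, Itgav, Itgb3 and Itgb8 were not analysed here.

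Itgb1 is the beta 1 subunit, partner of most alpha subunits and part of the main laminin, collagen and fibronectin receptors. Its log2 intensity was 10.41, 10.51 and 10.38 in tissue and 11.93, 11.88, 11.74, 11.75, 11.67 and 11.75 in culture. All 6 culture arrays lay well above the 3 tissue arrays and both culture sets lay close together. The difference was 1.35 ± 0.07 (SE, 6 and 3 arrays), 2.56-fold, with an adjusted p of 5.16e-07 by limma. A second probe set of the gene gave 1.73 ± 0.10 in the same direction.

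The 250 bases before the RefSeq start of Itgb1 and of the Timps are shown because these genes rose in culture. Those of Mmp24 and Adam22 are shown because their brightest probe sets parted the culture sets most. They come from RefSeq on the build GRCr8, read 5′ to 3′ in the direction of the gene, with capitals on each GC box (GGGCGG, on either strand, or CCGCCC as read here) and CCAAT box (CCAAT, or ATTGG as read here). Itgb1 lies on the plus strand, with its window at chr19:73602027-73602276, and held 4 GC boxes.
Itgb1: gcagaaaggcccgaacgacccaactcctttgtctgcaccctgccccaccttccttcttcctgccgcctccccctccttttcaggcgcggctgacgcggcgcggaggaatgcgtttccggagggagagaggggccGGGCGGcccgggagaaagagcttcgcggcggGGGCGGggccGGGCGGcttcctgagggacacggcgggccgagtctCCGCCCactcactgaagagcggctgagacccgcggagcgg

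Of the 47 members, 31 had such a window. The motif GGGCGG was found on either strand in 15 of the 31 windows, against 32.4% of 27457 rat promoter windows of the same length, and CCAAT in 10 of 31, against 34.3%. The AP-1 motif TGANTCA was found in 6 of 31, against 6.36%, and TATAAA in 9 of 31, against 13.1%. None of the 6 windows printed held TGANTCA or TATAAA. These matches are letters in a window and describe no binding.

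Itgb4 is the beta 4 subunit, which pairs with Itga6 in the laminin receptor of hemidesmosomes. It read 8.21, 7.65 and 8.26 in tissue, 8.59, 8.76 and 8.69 in culture arrays 1 to 3, and 9.47, 9.26 and 9.52 in culture arrays 4 to 6. The groups did not overlap, and here the second culture set was the higher one. The difference from tissue was 1.01 ± 0.24 (SE), 2.01-fold, adjusted p 0.00787 by limma, and was 0.64 with arrays 1 to 3 alone and 1.37 with arrays 4 to 6 alone.

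Itgb5, the beta 5 subunit of a vitronectin receptor, read 9.84, 9.78 and 9.43 in tissue and between 10.25 and 10.54 in culture. Every culture array was above tissue, with arrays 1 to 3 above arrays 4 to 6. It rose by 0.71 ± 0.11, 1.63-fold (limma adjusted p 0.000671), and its further probe set rose by 0.37 ± 0.06. Itgb7, a beta subunit of leukocyte integrins, differed by -0.17 ± 0.07 and did not pass the test (adjusted p 0.0629 by limma), although its 6 culture arrays all lay below its 3 tissue arrays.

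Itga1 forms a collagen and laminin receptor with the beta 1 subunit. It read 8.32, 8.52 and 8.53 in tissue, 7.88, 7.83 and 7.72 in culture arrays 1 to 3, and 7.59, 7.46 and 7.59 in arrays 4 to 6. The groups did not overlap, and the second culture set was the lower. It fell by 0.78 ± 0.10 on the log2 scale (limma adjusted p 0.000215), and passed with either culture set alone. Endothelial markers also moved: 7 of 8 measured were called lower (87.5%, against 22.7% of all genes), and Cldn5, Pecam1 and Vwf were dim in culture. The summed linear intensity of the 8 markers was 2960 to 3080 in tissue, 1360 to 1400 in the first culture set and 1150 to 1260 in the second. Their part in the fall of Itga1 was not tested.

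The other alpha subunits were not called. Itga3, of a laminin receptor, differed by -0.21 ± 0.11 and Itga7, a laminin receptor subunit known from muscle, by -0.10 ± 0.06. Itga2b, the alpha subunit of the platelet fibrinogen receptor, differed by -0.19 ± 0.07 (adjusted p 0.0516 by limma), with all 6 culture arrays below tissue. Of 3 measured megakaryocyte and platelet markers, 1 was lower, Pf4 (33.3%, against 22.7% of all genes). Itga8 was dim in both groups and differed by -0.12 ± 0.07. Without MesE11 replicate 2 it passed the test (limma adjusted p 0.0435), which made 6 members lower.

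Itga6, the laminin receptor subunit that pairs with Itgb1 or Itgb4, read 7.56, 7.43 and 7.43 in tissue. Culture arrays 1 to 3 lay above these, at 7.69, 7.70 and 7.60, and arrays 4 to 6 below, at 7.35, 7.37 and 7.23. The difference over all 6 was 0.02 ± 0.11 (limma adjusted p 0.898), made of 0.19 for the first set and -0.15 for the second. Its other probe set averaged 7.28 in tissue, 7.14 in arrays 1 to 3 and 6.94 in arrays 4 to 6. That probe set differed by -0.24 ± 0.11 and was not called (limma adjusted p 0.112). The mean of the probe sets gave -0.11.

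Of the integrin-binding proteins, Itgb1bp1, which binds the inner tail of the beta 1 subunit and limits its activation, rose. It read 9.27, 9.46 and 9.22 in tissue and 9.48 to 10.02 in culture, so the groups came within a small gap without overlap. The difference was 0.51 ± 0.12, 1.43-fold (limma adjusted p 0.00777, and 0.0487 with the culture sets as a random block). Itgb3bp, a centromere protein that also binds the beta 3 tail, differed by 0.19 ± 0.09 and was not called on its brightest probe set (adjusted p 0.101 by limma), while its other probe set rose by 0.61 ± 0.08 (adjusted p 0.000293). Itgb1bp2, known as melusin in muscle, was dim in both groups.

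**Figure D2:**
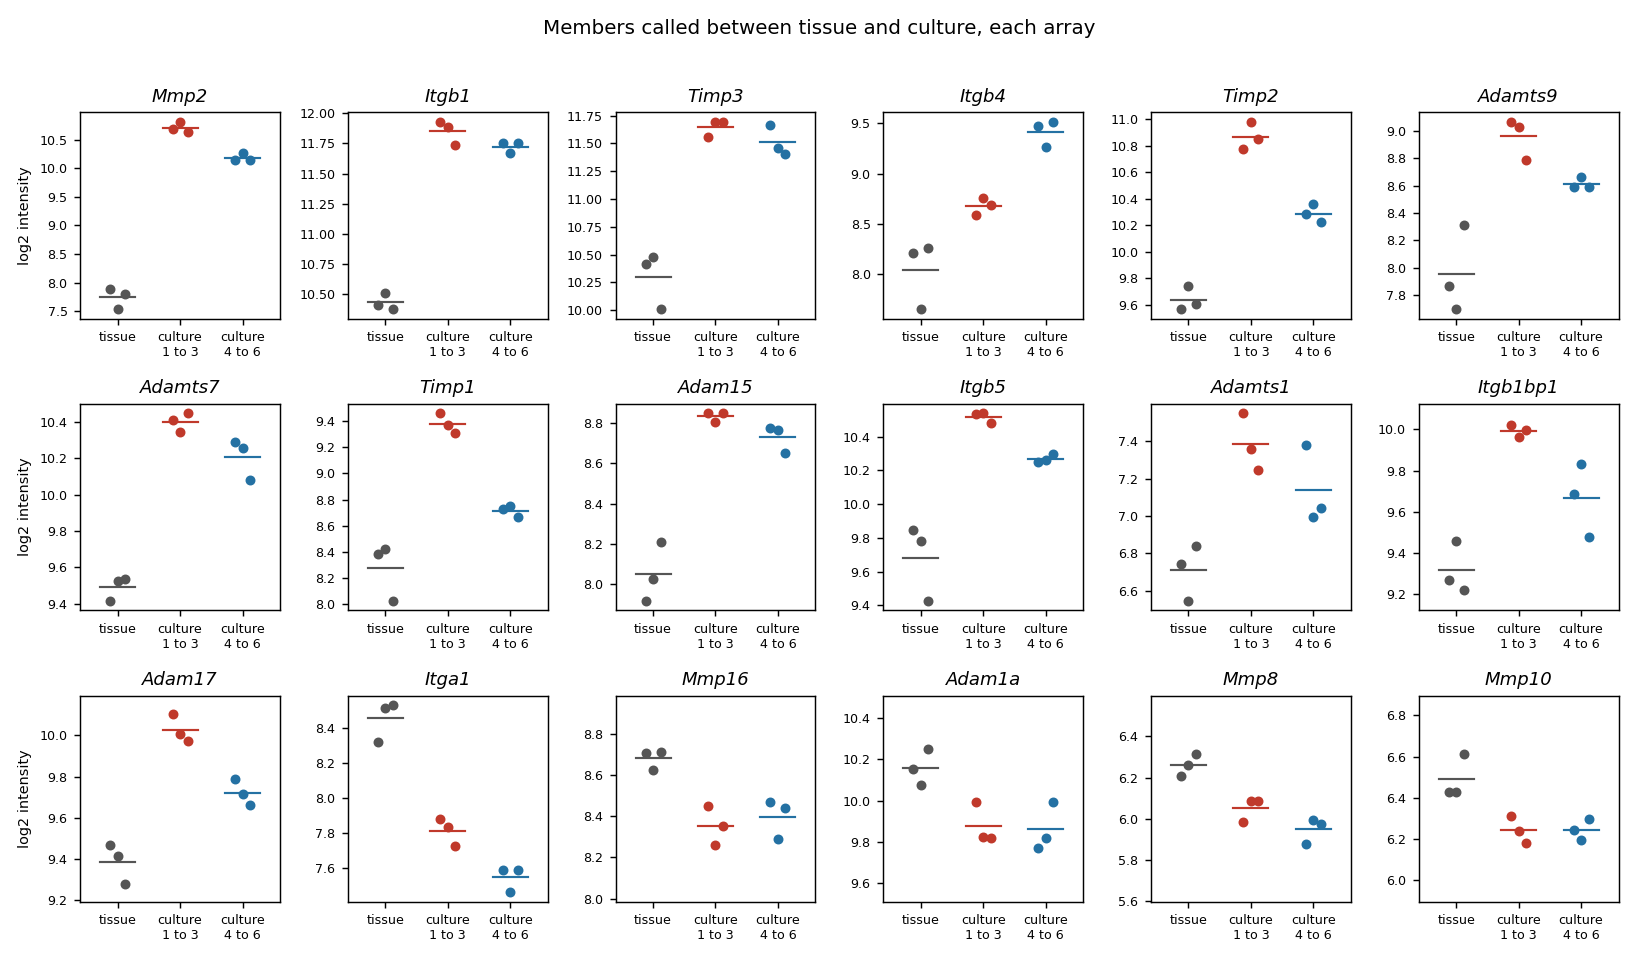
Log2 intensity (vertical axis) of the 18 called members in each tissue array (grey), culture arrays 1 to 3 (red) and culture arrays 4 to 6 (blue), with a line at each set's mean. Each panel has its own vertical range. In all 13 that rose, every culture array is above tissue, and Itgb4 is the panel among them with arrays 4 to 6 fully above arrays 1 to 3.

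All 3 inhibitors measured rose, against 21.9% of all genes, with a median difference of 0.94. Timp4 was not analysed here. Fibroblast markers rose with them: 10 of 10 were called higher, against 21.9% of all genes, with Lum dim in tissue. The summed linear intensity of the 10 markers was 8890 to 10000 in tissue, 40100 to 44900 in the first culture set and 41700 to 43800 in the second. Most of the tissue sum came from Vim, with a log2 mean of 12.71 there. The next brightest in tissue was Pdgfra, at 8.84. Astrocyte markers were called higher for 5 of 8 (62.5%, against 21.9% of all genes). Their sums were 8340 to 10900 in tissue, 15400 to 16500 in the first culture set and 14200 to 15400 in the second. The part of either list in the inhibitors and in the members that rose was not tested.

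Timp3 is the inhibitor that binds to the matrix and blocks Adam17 as well as metalloproteinases. It read 10.41, 10.47 and 10.01 in tissue and 11.56, 11.69, 11.69, 11.66, 11.46 and 11.41 in culture. The culture arrays formed 1 tight group above tissue, and the sets overlapped. It rose by 1.28 ± 0.11, 2.43-fold (limma adjusted p 1.64e-05). Of its 3 further probe sets, 2 rose, by 1.04 ± 0.14 and 0.73 ± 0.10, and 1 was not called, at 0.21 ± 0.17.

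Timp2, which inhibits metalloproteinases and also takes part in the activation of the Mmp2 proenzyme by Mmp14, read 9.57, 9.74 and 9.61 in tissue. Culture arrays 1 to 3 read 10.78, 10.98 and 10.85 and arrays 4 to 6 read 10.28, 10.36 and 10.23. Both sets lay above tissue and the first lay above the second, by 0.58. The difference from tissue was 0.94 ± 0.17, 1.92-fold (limma adjusted p 0.00195). Its other probe set differed by 0.01 ± 0.12 and was not called, so that the mean of its probe sets gave 0.47 (limma adjusted p 0.0154). In tissue that other probe set was slightly brighter, at a mean of 9.68 against 9.64.

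Timp1, a secreted inhibitor often induced in injured tissue, read 8.38, 8.43 and 8.02 in tissue, 9.46, 9.38 and 9.31 in culture arrays 1 to 3 and 8.73, 8.75 and 8.67 in arrays 4 to 6. Tissue, the second set and the first set followed in that order without overlap. The difference from tissue was 0.77 ± 0.20, 1.71-fold (limma adjusted p 0.0129). The call rests on MesE11 replicate 3, the lowest tissue array: without it the difference was 0.64 with an adjusted p of 0.0693.

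The windows of the Timps follow. Timp1 lies at chrX:3771123-3771372 with 1 GC box, Timp2 at chr10:104089215-104089464 with 1, and Timp3 at chr7:19459559-19459808 with 3 GC boxes and 1 CCAAT box, all on the minus strand.
Timp1: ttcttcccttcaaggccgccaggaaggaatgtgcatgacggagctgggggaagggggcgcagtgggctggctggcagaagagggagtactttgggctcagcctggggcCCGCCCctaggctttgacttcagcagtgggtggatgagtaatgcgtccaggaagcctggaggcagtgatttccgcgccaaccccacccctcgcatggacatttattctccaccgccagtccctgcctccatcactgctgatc
Timp2: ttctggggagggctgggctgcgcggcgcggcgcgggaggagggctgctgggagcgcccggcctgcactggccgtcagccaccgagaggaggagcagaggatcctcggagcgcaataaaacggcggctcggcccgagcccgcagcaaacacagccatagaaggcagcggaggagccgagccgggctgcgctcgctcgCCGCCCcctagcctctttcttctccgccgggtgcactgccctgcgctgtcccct
Timp3: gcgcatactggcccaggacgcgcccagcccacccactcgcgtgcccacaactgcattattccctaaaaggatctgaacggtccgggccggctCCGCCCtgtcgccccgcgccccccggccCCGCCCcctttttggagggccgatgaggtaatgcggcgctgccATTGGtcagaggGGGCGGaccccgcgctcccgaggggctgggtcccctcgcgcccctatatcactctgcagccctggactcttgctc

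Of the 14 matrix metalloproteinases, 1 rose, 3 fell and 10 were not called, with a median difference of -0.11. Of all genes 21.9% rose and 22.7% fell. Mmp2, gelatinase A, which cuts type IV collagen of basement membranes, had the largest difference of the 47 members on the brightest probe sets. As a mean of each gene's probe sets, Itgb1 (1.54) stood above Mmp2 (1.25). The brightest Mmp2 probe set read 7.89, 7.54 and 7.81 in tissue, 10.69, 10.81 and 10.63 in culture arrays 1 to 3 and 10.14, 10.26 and 10.14 in arrays 4 to 6. No culture array came near tissue, and the first set lay above the second. It rose by 2.70 ± 0.17, 6.50-fold (limma adjusted p 1.84e-06), and by 2.97 and 2.44 against the sets apart.

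The other Mmp2 probe set went the opposite way, from a mean of 8.37 in tissue to 8.17 in culture. In tissue it was brighter than the probe set used here, which averaged 7.74 there. The other probe set fell by 0.20 ± 0.07 on the log2 scale (limma adjusted p 0.0487). Among the 14 members with several probe sets, it was the 1 of 18 further probe sets that was called against the brightest. Of the others, 4 were called the same way, 7 were called in 1 only and 6 were called in neither.

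Mmp14, the membrane-bound enzyme that activates Mmp2 on the cell surface, was not called. It read 10.19, 10.21 and 9.70 in tissue and 10.11 to 10.75 in culture, with overlap, and differed by 0.28 ± 0.16 (limma adjusted p 0.165). Mmp16, another membrane-bound activator, read 8.71, 8.63 and 8.71 in tissue, and its culture arrays lay lower, at 8.26 to 8.47. It fell by 0.30 ± 0.06 on the log2 scale, 1.23-fold (limma adjusted p 0.0038).

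Several secreted enzymes were at the bottom of the array's range. Mmp3, Mmp8, Mmp9, Mmp10 and Mmp13 were dim in both groups, and Mmp12, macrophage elastase, in 1 of them. Mmp8, neutrophil collagenase, was called lower by 0.26 ± 0.06 and Mmp10, stromelysin-2, by 0.24 ± 0.06, but both groups of each read at or below the highest bacterial control, and Mmp10 did not pass after quantile scaling (adjusted p 0.0877 by limma). Over all 47 members, 9 were dim in both groups, the others being Adam6, Adam32, Itga8 and Itgb1bp2.

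In the gene order of RefSeq, 10 Mmp genes follow each other with no other protein-coding gene between them. Of these, 6 are members: Mmp3, Mmp7, Mmp8, Mmp10, Mmp12 and Mmp13. Here 4 of the 6 were dim in both groups, Mmp12 in 1 group, and Mmp7, matrilysin, in neither. Mmp7 differed by -0.07 ± 0.07 and Mmp23, a membrane-tethered enzyme outside this run, by 0.02 ± 0.07, neither called.

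The remaining Mmp members depended on which culture set was read. Mmp11, stromelysin-3, read 7.18, 7.25 and 7.21 in tissue, 7.55, 7.93 and 7.58 in culture arrays 1 to 3 and 7.29, 7.31 and 7.07 in arrays 4 to 6. Only the first set stood clear of tissue. The difference was 0.24 ± 0.16 over all 6 (limma adjusted p 0.226), 0.47 with the first set alone and 0.01 with the second alone.

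Mmp17 is anchored to the membrane by a lipid, and Mmp24 is a membrane-spanning enzyme known from neurons. Mmp17 read 9.63, 9.68 and 9.72 in tissue, 9.13, 9.17 and 8.98 in culture arrays 1 to 3 and 10.02, 9.94 and 9.93 in arrays 4 to 6. Mmp24 read 9.74, 9.74 and 9.80 in tissue, 8.93, 8.84 and 9.11 in arrays 1 to 3 and 10.05, 9.93 and 9.89 in arrays 4 to 6. For both, the first set lay below tissue and the second above it, with no overlap.

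Over all culture arrays neither was called by limma: Mmp17 differed by -0.15 ± 0.24 (adjusted p 0.643) and Mmp24 by -0.30 ± 0.28 (adjusted p 0.393). Against tissue, the set of arrays 1 to 3 gave -0.58 for Mmp17 and -0.80 for Mmp24, and the set of arrays 4 to 6 gave 0.29 and 0.19. The other Mmp24 probe sets did not follow: their set differences were 0.19 and 0.16, opposite in sign to the -0.99 of the brightest.

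Of the 14 Adam genes, 2 rose, 1 fell and 11 were not called, with a median difference of -0.07. Of all genes 21.9% rose and 22.7% fell. Adam15, a membrane protease that also binds integrins, read 7.92, 8.03 and 8.21 in tissue and 8.85, 8.80, 8.85, 8.78, 8.77 and 8.65 in culture. The culture arrays sat together above tissue. It rose by 0.73 ± 0.07, 1.66-fold (limma adjusted p 4.29e-05).

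Adam17, the sheddase of tumour necrosis factor and of several growth factor precursors, read 9.47, 9.41 and 9.28 in tissue and 9.66 to 10.11 in culture. All 6 culture arrays lay above tissue. It rose by 0.49 ± 0.10, 1.40-fold (limma adjusted p 0.00443). Adam10, the sheddase of Notch receptors and N-cadherin, read 9.01, 9.00 and 9.15 in tissue, 9.50, 9.41 and 9.42 in arrays 1 to 3 and 8.69, 9.10 and 9.06 in arrays 4 to 6. It differed by 0.15 ± 0.16 and was not called (limma adjusted p 0.468), with 0.40 for the first set alone and -0.10 for the second, while its other probe set rose by 0.48 ± 0.15 (adjusted p 0.0302).

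Adam1a, of the subgroup of fertilin genes known from sperm, read 10.15, 10.08 and 10.25 in tissue, and its culture arrays lay lower, at 9.77 to 9.99. It fell by 0.29 ± 0.07 on the log2 scale (limma adjusted p 0.00829). The other members known from the male reproductive tract, Adam2, Adam3a, Adam7, Adam18 and Adam32, were not called and differed by -0.19 to -0.06, with Adam32 dim in both groups. Adam6 was also dim in both groups, at a difference of -0.14 ± 0.06. Adam9 and Adam19, which are active membrane proteases, each differed by 0.06 and were not called, although a further Adam19 probe set was called lower, by 0.25 (limma adjusted p 0.0212).

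Adam22 and Adam23 have no protease activity and serve as receptors of Lgi proteins at synapses. Adam22 read 8.84, 8.93 and 8.94 in tissue, 7.35, 7.14 and 7.16 in culture arrays 1 to 3, and 8.69, 8.82 and 8.68 in arrays 4 to 6. All culture arrays lay below tissue, the first set far below and the second just under it. The difference of -0.93 ± 0.42 did not pass limma's test (adjusted p 0.0977), and was -1.68 with the first set alone (adjusted p 9.16e-08) and -0.17 with the second (adjusted p 0.0646).

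Adam23 read 9.93, 10.01 and 10.17 in tissue, 9.97, 9.87 and 10.06 in arrays 1 to 3, and 10.74, 10.62 and 10.63 in arrays 4 to 6. Here the first set overlapped tissue and the second lay above it. The difference over all 6 was 0.28 ± 0.20 (limma adjusted p 0.285). The further probe sets of both genes had set differences of -0.02 for Adam22 and 0.01 for Adam23. That of Adam22 was called lower in culture, by 0.19 (limma adjusted p 0.0447).

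All 3 Adamts genes, which encode secreted proteases with thrombospondin repeats, rose (against 21.9% of all genes), with a median difference of 0.81. Adamts9, a protease of the proteoglycans versican and aggrecan, read 7.87, 7.70 and 8.31 in tissue and 9.06, 9.03, 8.79, 8.59, 8.67 and 8.59 in culture. All culture arrays were above tissue. It rose by 0.83 ± 0.15, 1.78-fold (limma adjusted p 0.00206).

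Adamts7, which cuts cartilage oligomeric matrix protein, read 9.42, 9.53 and 9.54 in tissue and 10.41, 10.35, 10.45, 10.29, 10.26 and 10.08 in culture. Its groups were far apart. It rose by 0.81 ± 0.08, 1.76-fold (limma adjusted p 4.2e-05). Adamts1, another aggrecan and versican protease, read 6.75, 6.55 and 6.84 in tissue and 7.0 to 7.55 in culture. The groups did not overlap, and it rose by 0.55 ± 0.12, 1.47-fold (limma adjusted p 0.00581).

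The culture sets were then compared over all members, as a description with no test, since the split was noticed in these values. Arrays 1 to 3 all lay above arrays 4 to 6 for 19 of 47 members (40.4%, against 26% of all genes) and all below for 6 (12.8%, against 22.4% of all genes), with overlap for 22. The median set difference, arrays 1 to 3 minus arrays 4 to 6, was 0.10 over the members and 0.03 over all genes. The 6 with the second set higher were Adam22, Adam23, Itga3, Itgb4, Mmp17 and Mmp24. The first set lay fully above tissue and the second fully below for 1 member, Itga6 (brightest probe set), against 0.528% of all genes. The reverse held for 2, Mmp17 and Mmp24, against 1.08% of all genes.

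On the brightest probe sets, the largest set difference was that of Adam22, at -1.51 (2.85-fold). Next came Mmp24 at -0.99 (1.99-fold), Mmp17 at -0.87 (1.83-fold), Itgb4 at -0.74 (1.67-fold) and Adam23 at -0.70 (1.62-fold). In the other direction stood Timp1 at 0.67 (1.59-fold), Timp2 at 0.58 (1.5-fold), Mmp2 at 0.53, Adam10 at 0.49 and Mmp11 at 0.46. Itgb1, Timp3 and Mmp2 kept rises of over 1 log2 unit in both sets on these probe sets. The other Mmp2 probe set averaged 8.23 and 8.10 in the sets, below its 8.37 in tissue. A further Timp3 probe set averaged 7.84 and 7.34, beside 7.38 in tissue. Further probe sets had set differences of -0.02 for Adam22, 0.01 for Adam23, and 0.19 and 0.16 for Mmp24.

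Neuronal markers parted the same arrays. All 8 measured read lower in culture arrays 1 to 3 than in arrays 4 to 6, against 22.4% of all genes. Their summed linear intensity was 57200 to 62200 in tissue, 19100 to 22000 in the first set and 43800 to 45800 in the second. Against tissue, 5 of the 8 were called lower (62.5%, against 22.7% of all genes). The part of these markers in the set differences of Adam22, Adam23, Mmp17 and Mmp24 was not tested.

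The promoter windows of Adam22, at chr4:26670862-26671111 with 1 GC box, and of Mmp24, at chr3:164738976-164739225 with 5, both on the plus strand, are printed here.
Adam22: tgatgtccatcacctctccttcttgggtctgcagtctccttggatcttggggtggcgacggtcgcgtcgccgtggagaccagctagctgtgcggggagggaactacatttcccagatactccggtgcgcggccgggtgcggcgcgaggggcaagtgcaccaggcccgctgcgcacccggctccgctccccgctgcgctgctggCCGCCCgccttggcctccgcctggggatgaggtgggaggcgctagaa
Mmp24: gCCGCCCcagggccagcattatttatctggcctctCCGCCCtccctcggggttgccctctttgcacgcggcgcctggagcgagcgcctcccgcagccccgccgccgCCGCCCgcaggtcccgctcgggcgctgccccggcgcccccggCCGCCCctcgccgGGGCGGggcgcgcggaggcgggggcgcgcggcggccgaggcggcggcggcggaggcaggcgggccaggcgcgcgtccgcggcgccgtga

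Each set was also compared with tissue alone. These comparisons share the 3 tissue arrays, so they are not independent of each other. With arrays 1 to 3, 18 of the 47 members were called higher (against 25.7% of all genes) and 9 lower (against 27% of all genes). With arrays 4 to 6, 16 were higher (against 22.9% of all genes) and 10 lower (against 27.2% of all genes).

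**Figure D3:**
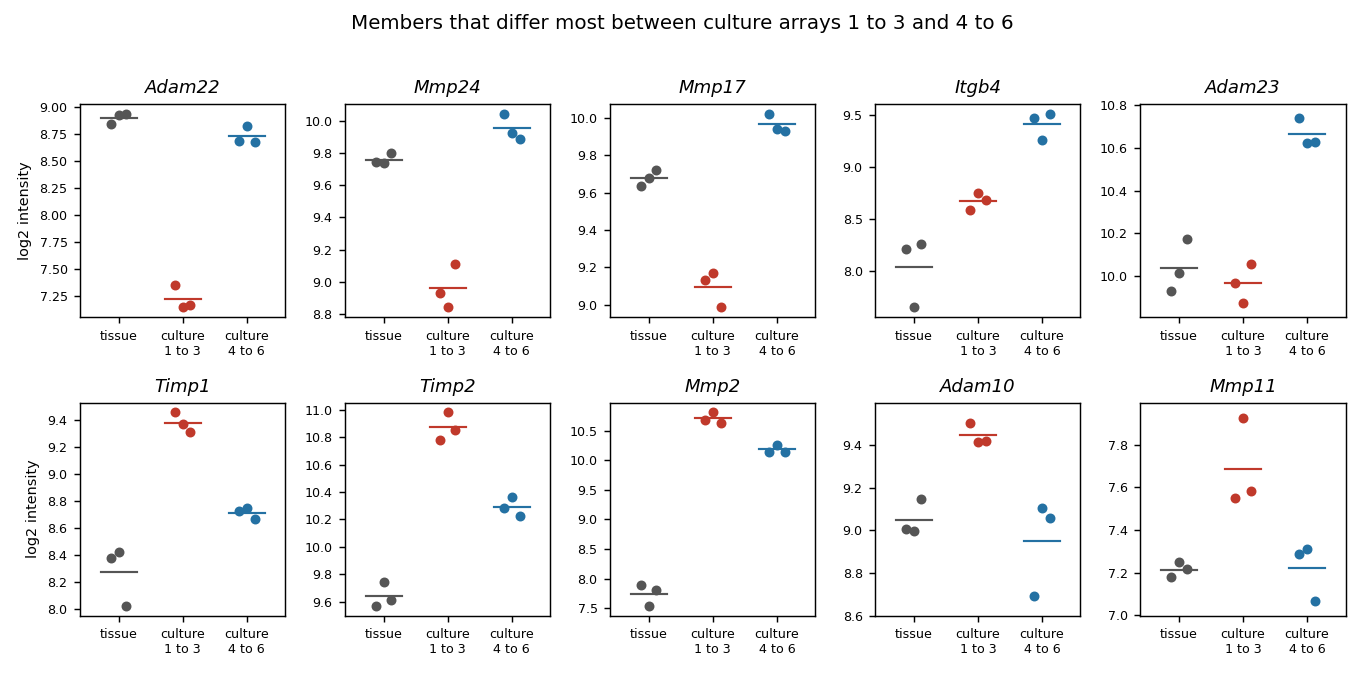
Log2 intensity (vertical axis, a range of its own in each panel) of the brightest probe set of 10 members. These had the largest differences between non-overlapping culture sets. Points are each tissue array (grey), culture arrays 1 to 3 (red) and 4 to 6 (blue), with lines at the means. For Mmp24 and Mmp17 tissue lies between the sets, while for Adam22 arrays 4 to 6 lie just under tissue and the difference of arrays 1 to 3 from tissue is -1.68.

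Genes that work with the members were counted on 4 lists. The lists were chosen with earlier results of these data known, so their shares are a description and no independent test. Over the 111 listed genes measured, 58 were called higher (52.3%, against 21.9% of all genes) and 14 lower (12.6%, against 22.7% of all genes). Without MesE11 replicate 3 the number lower was 7. The first list held other integrin and integrin ligand genes (23 of 29 measured). Of these, 13 rose (56.5%) and 5 fell (21.7%), with a median difference of 0.74 beside -0.06 over all genes. The matrix ligands Lama2 (2.32 ± 0.10) and Lamb1 (1.90 ± 0.10), which are laminin chains, periostin Postn (2.06 ± 0.10) and fibronectin Fn1 (1.81 ± 0.17) rose most. Postn is also on the list of fibroblast markers.

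Vcam1, the cell-surface ligand of leukocyte integrins, fell by 1.29 ± 0.09 on the log2 scale, and osteopontin Spp1 by 0.36 ± 0.11. The leukocyte integrin subunits Itgad and Itgam fell by 0.31 ± 0.06 and 0.27 ± 0.05. With the culture sets as a random block, Spp1 (adjusted p 0.211) and Itgam (0.0772) did not pass limma's test. Of 12 microglial and macrophage markers, among them Itgam, 7 fell (58.3%, against 22.7% of all genes). The summed linear intensity of these markers was 2750 to 2810 in tissue, 2140 to 2220 in the first culture set and 2030 to 2150 in the second, with C1qc, Ptprc, Tyrobp and Cd14 dim in culture, and their part in the falls was not tested.

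Focal adhesion genes (31 of 35 measured) link integrins to actin. On this list 20 rose (64.5%, against 21.9% of all genes) and 1 fell (3.23%, against 22.7%), with a median of 0.54. The actin cross-linker Actn1 rose by 1.37 ± 0.12, the integrin-binding tetraspanin Cd151 by 1.34 ± 0.08, the tensin Tns3 by 1.33 ± 0.13 and vinculin Vcl by 1.29 ± 0.14. Lims2, a partner of integrin-linked kinase, fell by 0.34 ± 0.09 on the log2 scale.

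Other genes of proteolysis at the cell surface made up the third list (29 of 33 measured). Of these, 16 rose (55.2%, against 21.9% of all genes) and 3 fell (10.3%, against 22.7%), with a median of 0.40. The wide-range protease inhibitor A2m rose by 2.22 ± 0.23, tissue plasminogen activator Plat by 2.09 ± 0.09, the proprotein convertase Pcsk6 by 1.95 ± 0.32, and the collagen chaperone Serpinh1 by 1.70 ± 0.15 (0.93 as a mean of its probe sets). Cathepsin S, Ctss, fell by 0.75 ± 0.08, the membrane protease St14 by 0.42 ± 0.08 and plasminogen Plg by 0.23 ± 0.08, of which Plg did not pass under the random block (limma adjusted p 0.257). Reck, a membrane-bound inhibitor of Mmp2 and Mmp14, differed by 0.33 ± 0.14 and was not called (limma adjusted p 0.0738).

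Among genes whose proteins Adam proteases release (28 of 29 measured), 9 rose (32.1%) and 5 fell (17.9%), with a median of 0.07, beside 21.9% and 22.7% of all genes. The tumour necrosis factor receptor Tnfrsf1a rose by 2.06 ± 0.19, the prion protein gene Prnp by 0.89 ± 0.08, the amyloid precursor relative Aplp2 by 0.66 ± 0.07 and Notch1 by 0.62 ± 0.17. Notch1 did not pass with the culture sets as a random block (limma adjusted p 0.0952). The growth factor precursors Btc, Tgfa and Ereg fell by 0.46 ± 0.07, 0.30 ± 0.07 and 0.26 ± 0.08, and the ephrin Efna5 by 0.32 ± 0.11. Of these 4, Btc passed under the random block (limma adjusted p 0.022), and Tgfa (0.119), Ereg (0.212) and Efna5 (0.181) did not.

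With the culture sets as a random block, 12 rose and 2 fell on the list of integrin and ligand genes, 17 rose on the focal adhesion list, where Lims2 no longer passed (adjusted p 0.107), 15 and 2 on the proteolysis list, and 6 and 1 on the list of Adam substrates. These counts come from limma at the same threshold, at which 13.2% of all genes were higher and 9.11% lower in that fit.

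**Figure D4:**
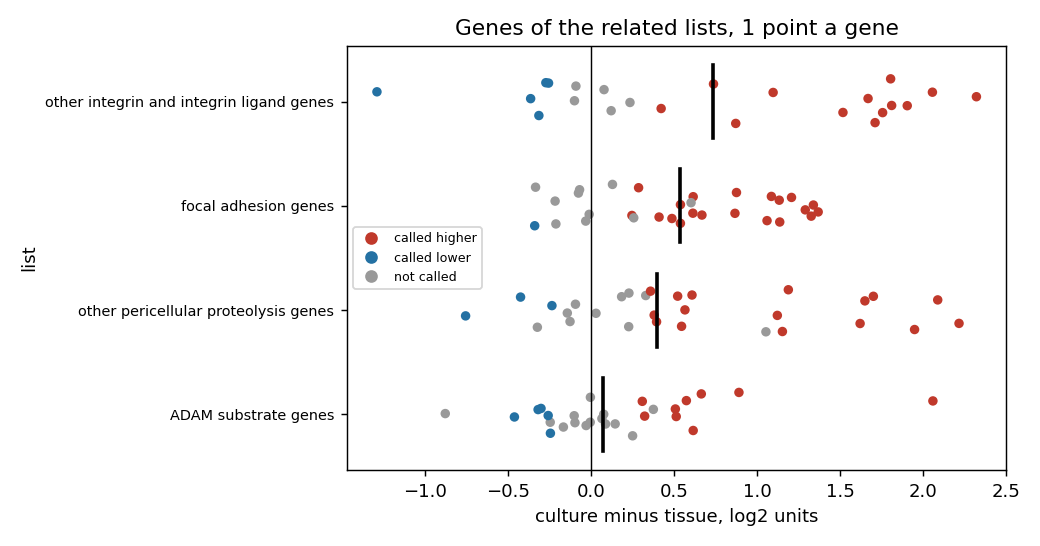
Difference between culture and tissue (horizontal axis, log2 units) for the 111 measured genes of the 4 related lists (vertical axis), 1 point a gene, coloured by call, with a black bar at each list's median. The medians are 0.74, 0.54, 0.40 and 0.07 from top to bottom.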

How the data were processed

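The deposited table holds log2 intensities that the authors made by RMA, per the submitters' processing notes (version not given in the sources used here). This method corrects background, scales arrays to 1 distribution and summarises probes, so small shifts depend on that scaling. Of 15923 probe sets, 57 controls were left out and 15866 tested under R 4.3.3 with the eBayes and lmFit functions of limma 3.58.1 (two-sided, culture minus tissue, no covariate, Benjamini-Hochberg adjustment over all, threshold 0.05), after a check on simulated arrays. Precision is limited by how many arrays each group has. The array's annotation gave 12783 probe sets 1 symbol and 312 several, with 2771 tested ones unnamed here. All 47 members' Entrez numbers were in RefSeq's GRCr8 table, which changed 0 symbols.

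Members and lists were chosen with earlier results of these data known. Given in full were called members at 1 log2 unit or more, every Timp, up to 3 further called members a family, up to 10 members by difference between non-overlapping culture sets, and up to 4 genes in each direction on a related list. Alternatives were other scalings, a filter on the dimmest 40% of probe sets, means of probe sets, each culture set alone, the sets as a random block (duplicateCorrelation), a replicate block and leaving out each array. Cell type lists covered microglia, endothelium, platelets, fibroblasts, neurons, astrocytes and midbrain.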

Additional observations from a re-analysis of the deposited data

Results flagged for a closer look

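Single culture arrays stood apart for 2 members. Adam19 read 9.57 in MesPC replicate 6, above the other culture arrays at 9.29 to 9.39. Mmp23 read 8.27 in MesPC replicate 4, below the others at 8.46 to 8.55. The culture groups of all 47 members were looked at in this way, and chance alone sets such an array apart in about 1 of 20 groups. That rate is for arrays drawn from 1 population. The culture arrays fell into sets, so it is only a rough guide here.

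For 3 members, on their brightest probe sets, the culture sets lay on opposite sides of tissue, with every array of a set on its side. Of all genes, 0.528% had arrays 1 to 3 above and arrays 4 to 6 below tissue, as Itga6 had, and 1.08% the reverse, as Mmp17 and Mmp24 had. The difference of arrays 1 to 3 minus arrays 4 to 6 was 0.34 for Itga6, -0.87 for Mmp17 and -0.99 for Mmp24. A further Itga6 probe set had both set means below tissue. The further Mmp24 probe sets had set differences of the opposite sign, 0.19 and 0.16. These differences were not tested.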

How the results depend on the processing

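The number of members called lower, 5 in the values reported, was the count that moved most: it was 10 with arrays centred on their medians, 2 without the dimmest 40% of probe sets (27 of 47 members remain there), 9 with culture arrays 1 to 3 alone, 10 with arrays 4 to 6 alone and 1 with the culture sets as a random block. The 14 related genes called lower became 3 without the dim probe sets and 5 under the random block. The 19 of 47 members with culture arrays 1 to 3 all above arrays 4 to 6 became 12 of the 27 that remain without the dim probe sets. Among the named members, signs changed with arrays 4 to 6 alone for Mmp17 (0.29), Mmp24 (0.19) and Adam10 (-0.098), and for Adam23 with arrays 1 to 3 alone and under the replicate block (-0.073 in both). Leaving out 1 array at a time gave 12 to 13 members higher, 5 to 6 lower, 54 to 61 related genes higher and 7 to 14 lower, and 19 to 26 members with the first set above and 6 to 7 with it below. A replicate block over numbers 1 to 3 gave 17 members higher and 9 lower. Shares of all genes were not counted for the median centring, the dim filter, the leave-one-out fits or the replicate block. Those counts therefore have no background beside them. Same-numbered tissue and culture arrays correlated in their deviations from the group means at 0.084, -0.119 and -0.111, and not every sample correlated best with its own number, so the numbers were not taken as pairing. Some settings leave fewer genes or arrays, and the cause of these shifts was not tested. Over the named members, 380 alternative values kept direction and side of the threshold, 11 newly passed it in the same direction, 7 no longer did and 5 reversed. Among the 5 reversed, Mmp17 (adjusted p 0.00493) and Mmp24 (0.0411) with arrays 4 to 6 alone also newly passed limma's test. Intensity near the bacterial controls limits what can be read from the dim members.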
